A study of Rattus norvegicus with 6 samples.

Results

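The conjugating enzymes described here are the rat glutathione transferases, glucuronosyltransferases and sulfotransferases. They were taken from the array by gene symbol: symbols that begin with Gst and a class letter and number, with Ugt1, Ugt2, Ugt3 or Ugt8 and a letter, or with Sult and a number. The rule found 47 of the 19958 genes on the array, of which 22 are glutathione transferases, 12 glucuronosyltransferases and 13 sulfotransferases. Their 57 probes were reduced to 1 probe per gene, the brightest over the 6 arrays. On 3 of the genes the array's symbol is older than RefSeq's: Ugt2b15 on the array is Ugt2b35 in RefSeq, Ugt2b17 is Ugt2b15, and Ugt3a2 is Ugt3a1. The array's symbols are used throughout.

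These enzymes carry out the second phase of detoxication. Glutathione transferases join glutathione to electrophiles and reduce some peroxides, glucuronosyltransferases of the endoplasmic reticulum add glucuronic acid from UDP-glucuronic acid, and sulfotransferases of the cytosol add sulfate from the donor PAPS. The products dissolve better in water and leave the cell through export pumps into bile or urine, and hepatocytes and the proximal tubule of the kidney hold many of the enzymes. The same families also handle hormones, bile acids and bilirubin.

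The study asked what iron shortage does to gene expression in cultured liver cells and in the rat. FAO cells, a rat liver line that grew out of a hepatoma, were given 100 µM of the iron chelator deferoxamine (DFO) for 24 h or were left without it. Wistar rats, which some labels call mice, ate a purified AIN-93G diet made without iron or the same diet with iron for 4 weeks, and liver and kidney were taken from them; their age and sex are not given in the sources used here. Each of the 6 groups is 1 one-colour array of RNA pooled from 3 FAO cultures or from 6 animals, and all 6 arrays lie on 1 slide. The tested groups and their controls are therefore DFO-treated against untreated FAO cells, iron-free against iron-sufficient liver, and iron-free against iron-sufficient kidney. FAO cells are 1 cell line, and a pooled sample shows an average with no spread between animals or cultures.

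With 1 array per group no test was possible, so differences are given as log2 of the treated over the control signal with a standard error (SE) from the spread between repeated spots on the arrays. That error covers spot noise only. A gene is called higher or lower when the difference, or a bound on it, was at least 2-fold. Signals are background-subtracted intensities in arbitrary units after the arrays were scaled to each other, and they compare arrays for 1 probe, not 1 gene with another. A probe not well above background on 1 array of a pair gives only a bound, written as at least N-fold, and a probe not above background on both gives no value. A bound holds only for the spots and background correction used. With a noisy spot left out or another background correction, some folds came out smaller than their bound. Medians take a bound at its value.

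The arrays differed in quality. Between 37.7% and 48.8% of the 30367 probes were well above background per array, and none of the gene spots was saturated. The share was least on the control kidney array, followed by the control liver array (40.15%) and the iron-free kidney array (40.51%). The control liver array had 49 of 264 blocks of spots with strongly scattered replicate spots, the DFO array 13 and the control kidney array 11, against 1 or 2 on each of the other three. A value with spots in such blocks is given without them too where that ended or made a call, turned the sign or moved it by more than 1.5-fold. The 10 hepatocyte markers on the list used, among them albumin, were above background on all 4 liver and FAO arrays and on neither kidney array, and the 10 kidney tubule markers were all above background in both kidneys. In bulk RNA, fewer cells of a type and less RNA per cell cannot be told apart.

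Of the 47 genes, 35 were well above background on at least 1 array and 23 on all 6. The glutathione transferases were the most widely detected family: 18 of 22 were found somewhere and 16 on every array. Among the glucuronosyltransferases 8 of 12 were detected on at least 1 array and 3 on all 6. Among the sulfotransferases 9 of 13 were detected on at least 1 array and 4 on all 6. The 12 genes not above background on any array were Gstm6, Gstm6l, Gsto2, Gstt4, Ugt1a9, Ugt2a1, Ugt2b, Ugt3a2, Sult1d1, Sult2a2, Sult2b1 and Sult6b1, and no value is drawn from them. By array, DFO-treated FAO cells had 29 of the 47 above background and untreated FAO cells 32, iron-free liver 32 and iron-sufficient liver 31, and the kidneys 24 each.

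**Figure D1:**
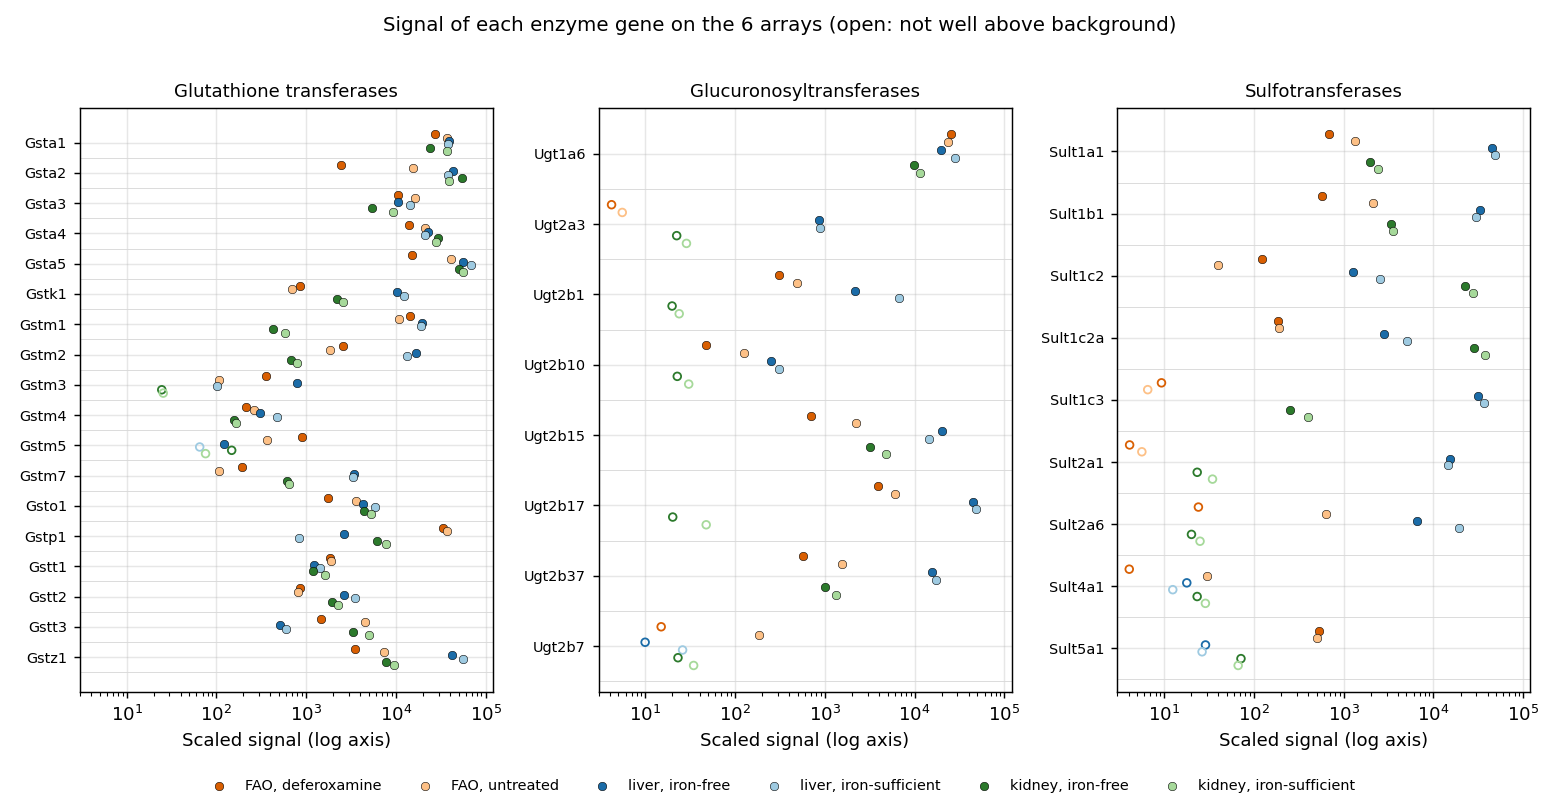
Scaled signal (log axis, arbitrary units) of the 35 enzyme genes above background on at least 1 array, by family; each point is 1 array, and open points are not well above background. The DFO points of Gsta2 and Gsta5 (2431 and 15039) are the lowest of their rows, and several Ugt2b and Sult genes have open points in kidney.

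The sequences below are stretches of RefSeq promoters (assembly GRCr8, gene strand, numbered from the first transcribed base). They are shown for some genes called in the diet or chelation pairs and for a relative. RefSeq's table held a promoter for 42 of the 47 genes. The first pair is Sult2a6, called lower in both iron-free liver and DFO-treated cells, and its relative on the same chromosome, Sult2a1, which differed little in liver. The liver call of Sult2a6 rests on 2 control spots in noisy blocks and has no value without them. Both genes lie on the minus strand, Sult2a6 at chr1:84097858-84098033 and Sult2a1 at chr1:84638997-84639172, and the windows run from -225 to -50. Capitals mark GGTCATGAA, part of an inverted repeat bound by nuclear receptors in the rat Sult2a1 promoter, TTGCNCAA, a C/EBP type motif, and GTTAATNAT, an HNF1 type motif.
Sult2a6: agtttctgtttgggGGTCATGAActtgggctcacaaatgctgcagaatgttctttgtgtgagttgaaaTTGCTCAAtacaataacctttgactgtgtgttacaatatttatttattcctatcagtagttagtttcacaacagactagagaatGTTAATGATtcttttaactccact
Sult2a1: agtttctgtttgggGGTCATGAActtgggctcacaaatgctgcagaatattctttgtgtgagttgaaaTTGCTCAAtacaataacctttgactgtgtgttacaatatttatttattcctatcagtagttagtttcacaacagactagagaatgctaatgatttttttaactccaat
The windows had the same base at 172 of 176 positions (97.7%). GGTCATGAA starts at -211 and TTGCTCAA at -157 in both, whereas GTTAATGAT, at -73 of Sult2a6, is not in the Sult2a1 window. Over all 27457 promoters of the table, counting both strands, GGTCATGAA was found in 50 (0.182%), GTTAATNAT in 0.75% and TTGCNCAA in 2.72%. Among the 42 promoters of the enzymes GGTCATGAA was found in 3, all of the Sult2a group (Sult2a1, Sult2a2 and Sult2a6), GTTAATNAT in 2 and TTGCNCAA in 8.

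The second set is Gstm3 and Gstp1, the glutathione transferases called higher in iron-free liver by the probe chosen per gene, and Gstm5, each from -130 to -1. Gstm5 is a mu class gene higher in DFO-treated cells. Gstm5 lies at chr2:198219639-198219768 on the plus strand, Gstm3 at chr2:198300668-198300797 on the minus strand and Gstp1 at chr1:210769706-210769835 on the minus strand. Capitals mark TGACNNNGC, the core of the antioxidant response element that NRF2 binds in rat Gst promoters.
Gstm5: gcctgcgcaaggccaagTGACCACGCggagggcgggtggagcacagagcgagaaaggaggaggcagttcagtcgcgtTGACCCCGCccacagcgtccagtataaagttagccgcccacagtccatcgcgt
Gstp1: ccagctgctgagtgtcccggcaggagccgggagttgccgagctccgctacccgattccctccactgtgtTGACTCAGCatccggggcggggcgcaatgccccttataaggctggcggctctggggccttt
Gstm3: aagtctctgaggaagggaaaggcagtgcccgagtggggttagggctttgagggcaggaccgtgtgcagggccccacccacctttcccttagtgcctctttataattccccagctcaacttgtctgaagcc
The core starts at -113 and -53 in Gstm5 and at -61 in Gstp1, and these letters are not in the Gstm3 window. They were found in 12.2% of all promoters of 250 bases before to 50 after the start and in 7 of the 42 enzyme promoters (16.7%). The other enzymes with a match were Gstm7, Gsta3, Gstz1, Gsta1 and Gsta2. The dioxin receptor core TGCGTG was found in 4 of the 42, against 8.3% of all promoters, and the hypoxia response core NACGTGC in 3, against 5.81%. The 6 motifs were chosen after matches had been seen, and a match in these letters is not a measured binding site.

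DFO-treated FAO cells carried less RNA of several enzymes of all 3 families than untreated FAO cells. Of the 32 members with a value, 11 were at least 2-fold lower (34.4%), beside 6.44% of all 10695 genes with a value, and 3 were at least 2-fold higher (9.38%), beside 4.05% of all genes. The median member differed by -0.57 and the median gene by 0.03 on the log2 scale. By family, 4 of 7 glucuronosyltransferases, 5 of 18 glutathione transferases and 2 of 7 sulfotransferases were lower, with family medians of -1.41, -0.22 and -0.55. The median of -1.41 is the value of Ugt2b10 (± 1.01), from 1 spot per array. That of -0.55 is a bound for Sult4a1, also 1 spot, dim in untreated (29.6) and below background in DFO-treated cells. With normexp correction the medians were -0.79 for glucuronosyltransferases, -0.43 for glutathione transferases and -0.06 for sulfotransferases, so the order of the families depends on the background correction. Without noisy blocks 10 members were lower, 3 of them glutathione transferases, beside 3.82% of all genes. Hepatocyte markers were also lower in part: 2 of 10, Ttr and Apob, were called, Ttr within 2-fold (-0.65) without a noisy spot, the median of the list was -0.44, and its summed signal was 122342 in DFO-treated and 119727 in untreated cells. The part of hepatocyte RNA in general in the enzymes' difference was not tested.

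Among the alpha class glutathione transferases, which hepatocytes hold in large amounts, Gsta2 and Gsta5 were lower and the other 3 were not called. Gsta2 had a signal of 2431 in DFO-treated and 15440 in untreated FAO cells, 43721 in iron-free and 38023 in iron-sufficient liver, and 53873 in iron-free and 39030 in iron-sufficient kidney. Its DFO value lay below those of all 5 other arrays, and the difference in FAO cells was -2.67 ± 0.19 (spot SE, log2), a 6.35-fold lower signal. The 2 spots on the DFO array read 3478 and 1699, the second in a noisy block, and both untreated spots, 15229 and 15653, were above them. Without that spot the difference was -2.17. The iron-sufficient liver spots of Gsta2, 22445 and 64413, both lie in noisy blocks. So does 1 of its iron-sufficient kidney spots, 26856, beside one of 56725.

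Gsta5 had a signal of 15039 in DFO-treated and 40813 in untreated FAO cells, 56105 in iron-free and 68369 in iron-sufficient liver, and 50690 in iron-free and 56564 in iron-sufficient kidney. As for Gsta2, the DFO array was the lowest of the 6, with a difference of -1.44 ± 0.14. Gsta1, measured by 10 spots per array, was 27088 in DFO-treated and 37129 in untreated cells, a difference of -0.45 ± 0.06 that stayed within 2-fold. Alpha class genes have similar sequences, and how far their probes also catch RNA of their relatives was not tested.

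Gstz1, the maleylacetoacetate isomerase of tyrosine breakdown, gave 3525 in DFO-treated and 7297 in untreated FAO cells, 41755 in iron-free and 55375 in iron-sufficient liver, and 7680 in iron-free and 9455 in iron-sufficient kidney. Its difference in FAO cells, -1.05 ± 0.24, was barely past 2-fold. For the theta class gene Gstt3 the signal was 1473 in DFO-treated and 4519 in untreated FAO cells, 511.6 in iron-free and 596.4 in iron-sufficient liver, and 3351 in iron-free and 5063 in iron-sufficient kidney. FAO cells and kidney thus had more Gstt3 signal than liver.

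The Gstt3 difference in FAO cells was -1.62 ± 0.20, but the DFO spots read 2424 and, in a noisy block, 894.5. Without the noisy spot it was -0.92, and a second Gstt3 probe gave -0.83, so the call rests on 1 spot. Gsto1, an omega class enzyme that reduces dehydroascorbate, gave 1744 in DFO-treated and 3568 in untreated FAO cells, 4348 in iron-free and 5799 in iron-sufficient liver, and 4387 in iron-free and 5305 in iron-sufficient kidney. Its difference of -1.03 ± 0.20 came from 1 DFO spot of 843.6 in a noisy block beside one of 3607, and without it no difference was left (-0.01). The call of Gsto1 therefore depends on a noisy stretch of the DFO array.

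Both glutathione transferases that were higher belong to the mu class. Gstm5 had 890.6 in DFO-treated and 370.9 in untreated FAO cells and 122.5 in iron-free liver, and it was not well above background in iron-sufficient liver (65.1) or in iron-free (148.0) and iron-sufficient (75.7) kidney. The difference in FAO cells was 1.26 ± 0.27, a 2.40-fold higher signal. Gstm3 read 360.2 and 350.4 on the 2 spots of DFO-treated FAO cells and 108.6 and 105.4 on those of untreated FAO cells. On average over its spots it had 782.2 in iron-free and 100.8 in iron-sufficient liver, and was below background in iron-free (24.6) and iron-sufficient (25.6) kidney. The repeat spots of the 2 FAO arrays do not overlap. The difference was 1.73 ± 0.53, a 3.32-fold higher signal, and the second Gstm3 probe gave 1.33.

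Among the 4 other mu class genes above background in FAO cells, Gstm7 (0.85), Gstm2 (0.47) and Gstm1 (0.40) were higher by less than 2-fold and Gstm4 differed by -0.29. Gstp1, the pi class enzyme known as a marker of altered foci in rat liver, was bright in both, 33656 in DFO-treated and 37123 in untreated cells, and differed by -0.14 ± 0.14.

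The glucuronosyltransferases of the 2b group, which conjugate steroids and many drugs, had a lower signal in DFO-treated cells for all 6 genes with a value, 4 of them by at least 2-fold. Ugt2b15 gave 702.7 in DFO-treated and 2240 in untreated FAO cells, 20342 in iron-free and 14407 in iron-sufficient liver, and 3154 in iron-free and 4785 in iron-sufficient kidney. Its difference in FAO cells was -1.67 ± 0.28, a 3.19-fold lower signal. Ugt2b37 gave 565.0 in DFO-treated and 1555 in untreated FAO cells, 15457 in iron-free and 17377 in iron-sufficient liver, and 999.9 in iron-free and 1312 in iron-sufficient kidney.

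The Ugt2b37 difference was -1.46 ± 0.28 in FAO cells, and liver was the brightest tissue for both genes. A second Ugt2b37 probe read 31.9 in untreated cells and was not above background in DFO-treated cells, a signal at least 1.58-fold lower. Ugt2b10 gave 47.0 in DFO-treated and 125.1 in untreated FAO cells, 247.8 in iron-free and 310.4 in iron-sufficient liver, and was below background in iron-free (22.6) and iron-sufficient (30.3) kidney. Its probe has 1 spot per array near background, and the difference of -1.41 ± 1.01 is within 2 spot SE. The Ugt2b7 probe, also 1 spot, was above background only in untreated FAO cells: 14.96 in DFO-treated and 184.8 in untreated FAO cells, 9.91 in iron-free and 25.9 in iron-sufficient liver, and 23.0 in iron-free and 34.4 in iron-sufficient kidney.

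The signal of Ugt2b7, whose human namesake conjugates morphine and bile acids, was at least 9.17-fold lower in DFO-treated cells, a bound of -3.20 on the log2 scale, against -1.85 with normexp correction. Ugt2b1 (-0.64 ± 0.47) and Ugt2b17 (-0.61 ± 0.17) stayed within 2-fold; without a noisy spot Ugt2b17 came to -1.004 and passed. Outside the 2b group, Ugt1a6, which conjugates small planar phenols, was 25329 in DFO-treated and 23627 in untreated cells, a difference of 0.10 ± 0.14. So the family median of -1.41 describes the 2b genes and not Ugt1a6.

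Of the sulfotransferases, Sult2a6 and Sult1b1 were lower. Sult2a6 belongs to the hydroxysteroid sulfotransferases, which sulfate steroids and bile acids. Its signal was 24.0 in DFO-treated and 627.0 in untreated FAO cells, 6486 in iron-free and 19088 in iron-sufficient liver, and below background in iron-free (20.1) and iron-sufficient (25.02) kidney. With the probe not well above background on the DFO array, the signal there was at least 26.1-fold lower. That size depends on 1 spot: the DFO spots read 6.23, in a noisy block, and 92.5, against 621.9 and 632.2 in untreated cells, and with the noisy spot left out the gene was measured on both arrays and was 6.89-fold lower (-2.79).

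Sult1b1, which sulfates thyroid hormones and phenols, gave 570.8 in DFO-treated and 2101 in untreated FAO cells, 32772 in iron-free and 29842 in iron-sufficient liver, and 3356 in iron-free and 3511 in iron-sufficient kidney. Its difference in FAO cells was -1.88 ± 0.28, a 3.68-fold lower signal, and a second probe gave -1.61. Sult1c2 was called higher, with 122.2 in DFO-treated and 39.6 in untreated FAO cells, 1262 in iron-free and 2505 in iron-sufficient liver, and 22282 in iron-free and 27491 in iron-sufficient kidney. Its difference of 1.62 ± 1.45 is hardly larger than its spot SE, since 1 of the 2 untreated spots was flagged as an outlier and the other is dim. Sult1a1, the main phenol sulfotransferase, came to -0.95 ± 0.28 and missed 2-fold.

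**Figure D2:**
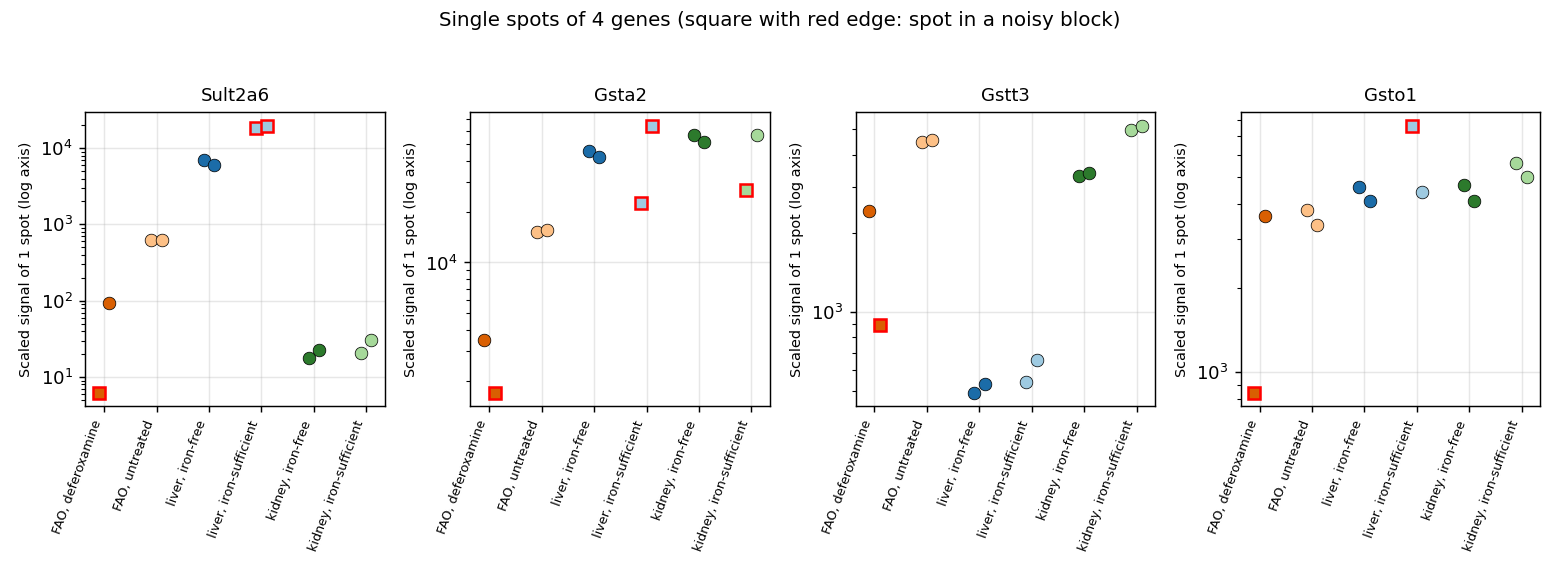
Scaled signal (log axis) of the single spots of Sult2a6, Gsta2, Gstt3 and Gsto1 on each array; squares with a red edge lie in noisy blocks. For Gsto1 the lower DFO spot (843.6) is in a noisy block and the other (3607) lies between the untreated spots, while for Gsta2 and Sult2a6 both DFO spots lie below both untreated spots.

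Genes that feed or clear these reactions were called in ones and a few per list, beside 4.05% higher and 6.44% lower of all genes. Glutathione supply had 2 higher and 1 lower of 16 with a value (median -0.24): Chac1, which degrades glutathione, 1.34, Ggct, which acts on gamma-glutamyl products, 1.06, and Cth, which makes cysteine, -1.48. Sulfate supply and removal had 1 higher and 3 lower of 11 (median -0.02): the PAPS carrier Slc35b3 -1.54, the sulfate carrier Slc26a1 -1.18, the PAPS synthase Papss2 -1.17 and steroid sulfatase, Sts, 1.02.

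Glucuronic acid supply had 0 higher and 1 lower of 8 (median -0.41), Nqo1 with -1.19, a quinone reductase that takes no part in glucuronic acid supply and stood on the list beside it; none of the other 7 was called. Export pumps and uptake carriers had 1 higher and 3 lower of 10 (median -0.59): Abcb1b, a P-glycoprotein, 1.43, the uptake carriers Slco1a4, at least 3.20-fold lower, and Slc22a6, at least 2.68-fold lower, and the pump Abcc4 -1.32, which came to -0.51 without a noisy spot. Other conjugating enzymes had 0 higher and 1 lower of 11 (median -0.28), the glycine acyltransferase-like gene Glyatl2 with -2.25. Transcription factors of these genes had 1 higher and 1 lower of 14 (median -0.11), Cebpb with 1.54 and Nr1i3, the receptor CAR, at least 2.51-fold lower.

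**Figure D3:**
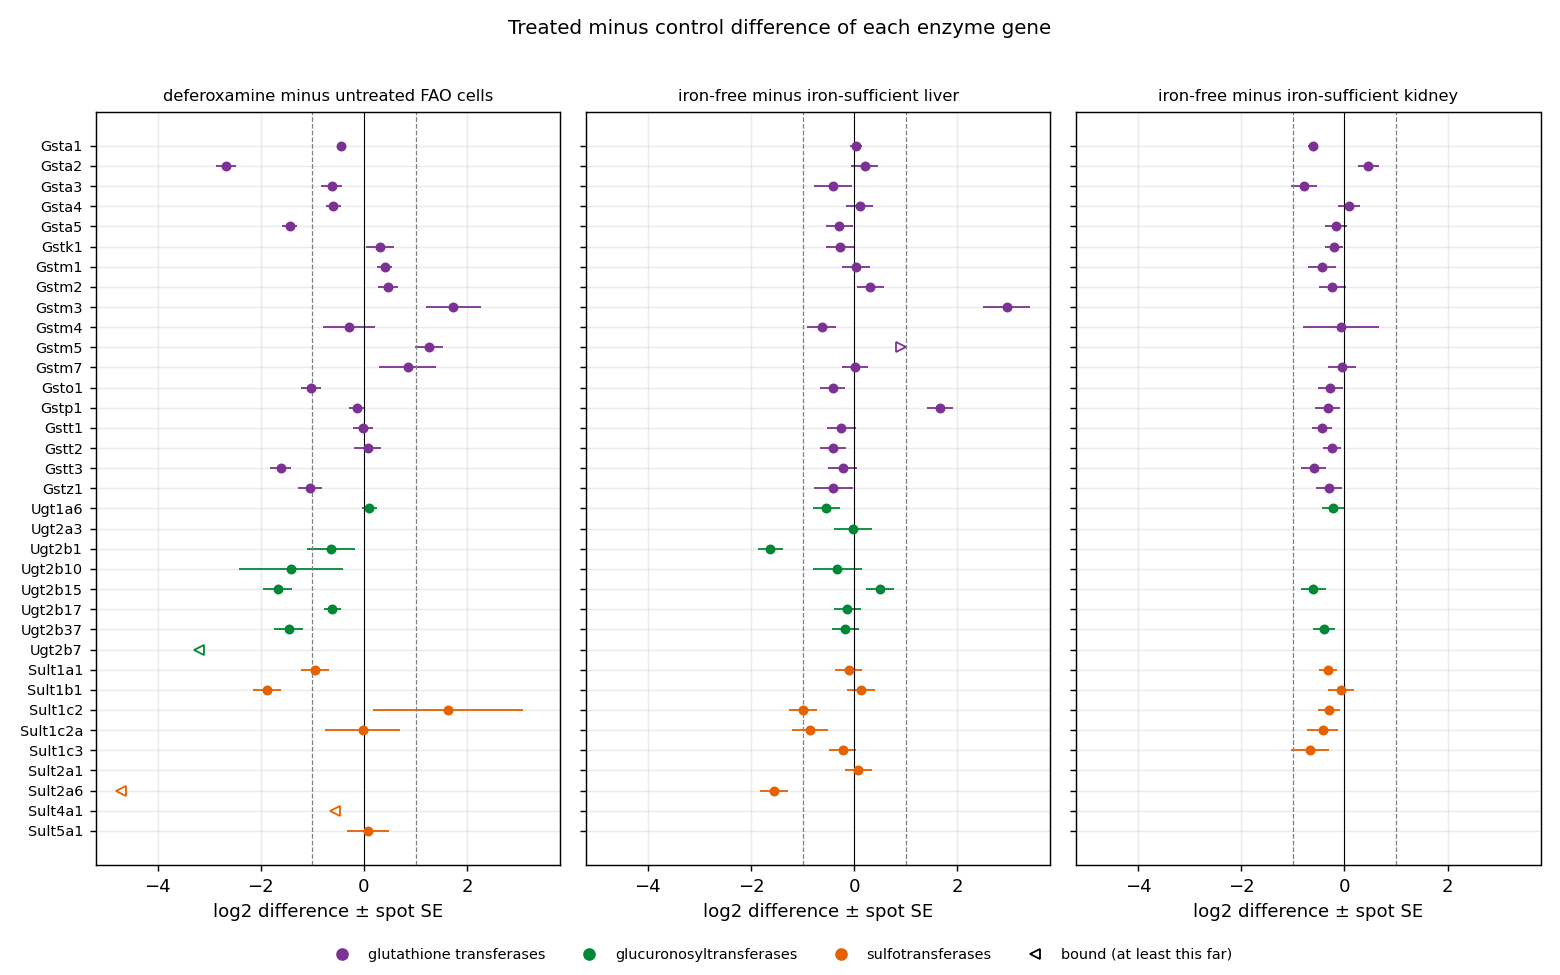
Log2 difference, treated minus control, of the 35 enzyme genes in FAO cells, liver and kidney, with bars of ± 1 spot SE; open triangles are bounds, dashed lines mark 2-fold, and a missing point means no value. In FAO cells 11 genes lie at or beyond the lower line and 3 beyond the upper, in liver 2 and 2, and in kidney none.

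In iron-free liver few of the enzymes differed from iron-sufficient liver. Of 32 with a value, 2 were at least 2-fold higher, Gstm3 and Gstp1 (6.25%, beside 6.52% of all 10172 genes), and 2 were at least 2-fold lower, Ugt2b1 and Sult2a6 (6.25%, beside 3.01%). The share that was higher is that of all genes, and the share that was lower comes from 2 genes, so the counts do not set the enzymes apart. The counts use the brightest probe of each gene, and for Gsta3 the probes disagreed. The brighter Gsta3 probe gave -0.41 in liver. The second read 186.5 in iron-free liver and was not above background in iron-sufficient liver (22.3), at least 4.14-fold higher. The median member differed by -0.20 and the median gene by 0.02. When arrays were scaled to the median of their own detected probes, the median of all liver genes moved to 0.59 and that of the members to 0.385, with 4 higher and 1 lower, so the sign of small liver differences depends on the scaling. Relative to all genes the members' median was -0.21 under the first scaling and -0.20 under the second. Both scalings shift a whole array and move members and all genes alike, so this match was fixed in advance. The value was -0.165 with quantile normalization, -0.12 with normexp correction and -0.22 without noisy blocks.

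Gstm3 gave the largest difference of any member in liver. The spots of the iron-free array read 749.6 and 816.1, and those of the iron-sufficient array 115.9 and 87.8. The repeat spots do not overlap, which bears on spot noise only and not on the spread between animals. The difference was 2.96 ± 0.45, a 7.76-fold higher signal, and the second probe gave 3.12. With normexp background correction of the median signals it was smaller, 1.83. Gstm3 was the only member called higher both in iron-free liver and in DFO-treated cells, and in kidney it was below background with either diet.

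Gstp1 had 2631 in iron-free and 830.1 in iron-sufficient liver, 33656 in DFO-treated and 37123 in untreated FAO cells, and 6205 in iron-free and 7775 in iron-sufficient kidney. The liver difference was 1.67 ± 0.26, a 3.17-fold higher signal, and 1.57 without a noisy spot. Its spots were 2492 and 2778 in iron-free and 767.8 and 897.3 in iron-sufficient liver. Cells other than hepatocytes hold Gstp1 in rat liver, among them bile duct cells, and their markers moved in part with the diet. Of 9 leukocyte and macrophage markers with a value 3 were higher, with summed signals of 26244 in iron-free and 22298 in iron-sufficient liver. Of all genes 6.52% were higher and 3.01% lower in this pair.

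Of 4 bile duct markers 1 was higher (Krt7, 1.30) and 1 lower (Epcam, -1.02), with sums of 1292 in iron-free and 866.3 in iron-sufficient liver. Of 8 erythroid markers 6 were higher, with sums of 436176 in iron-free and 329607 in iron-sufficient liver. Stellate cell and fibroblast markers were higher for 1 of 7, with sums of 13368 in iron-free and 11743 in iron-sufficient liver. Hepatocyte markers were higher for 1 of 10, with sums of 1603854 in iron-free and 1552287 in iron-sufficient liver. The part of these cells in the Gstp1 and Gstm3 signals was not tested. Gstm5 was above background in iron-free liver (122.5) and not in iron-sufficient liver (65.1), at least 1.88-fold higher, and 1.44-fold higher without a noisy spot.

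Ugt2b1, a liver glucuronosyltransferase of the 2b group, had 2179 in iron-free and 6712 in iron-sufficient liver, 309.8 in DFO-treated and 484.1 in untreated FAO cells, and was below background in iron-free (19.8) and iron-sufficient (23.8) kidney. The liver spots, 2365 and 2008 on the iron-free and 7010 and 6427 on the iron-sufficient array, do not overlap, and the difference was -1.62 ± 0.25, a 3.08-fold lower signal. No other glucuronosyltransferase was called in liver: the 6 others with a value lay between -0.54 (Ugt1a6) and 0.50 (Ugt2b15). Ugt2b15 and Ugt2b37, both lower in DFO-treated cells, differed by 0.50 ± 0.27 and -0.17 ± 0.27 in liver, and Ugt2b15 by 0.13 without a noisy spot of the iron-sufficient array.

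Sult2a6 in liver gave 6945 and 6057 on the iron-free spots and 18445 and 19753 on the iron-sufficient spots. The difference was -1.56 ± 0.27, a 2.94-fold lower signal, but both iron-sufficient spots lie in noisy blocks, and without them the gene has no value; under the scaling to own medians it was -0.98. Sult2a1, whose promoter window is nearly the same, had 15171 in iron-free and 14339 in iron-sufficient liver, a difference of 0.08 ± 0.27 that came to -0.25 without a noisy spot. Sult1c2 (-0.99 ± 0.28) and Sult1c2a (-0.85 ± 0.35) fell short of 2-fold, and the second Sult1c2a probe gave 0.68, or 0.16 without a noisy spot. Sult2a6 and Gstm3 were the 2 of 16 called members that were called in more than 1 pair, both in the same direction in FAO cells and liver. No member was called in all 3. The share of all genes called in more than 1 pair was not computed, so this count does not set the members apart.

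Around the enzymes, liver had single genes past 2-fold in each group, beside 6.52% higher and 3.01% lower of all genes. At those shares, single calls on lists this short do not set the lists apart. Nat8, which acetylates cysteine conjugates into mercapturates, was 3522 in iron-free and 799.6 in iron-sufficient liver, a difference of 2.14 ± 0.26, and was the 1 gene higher and none lower of 15 other conjugating enzymes (median 0.16). Glutathione supply had 1 higher and 0 lower of 14 (Gss, glutathione synthetase, 1.01, median -0.15), glucuronic acid supply 1 higher and 0 lower of 7 (again Nqo1, at least 2.61-fold, and none of the supply genes, median -0.01) and sulfate supply 1 higher and 0 lower of 11 (Papss1, at least 4.11-fold with no value without noisy spots, median -0.00). Exporters and carriers had 2 higher and 0 lower of 15, Abcb1b with 1.05 and Abcc5 at least 2.06-fold higher (median 0.01), and transcription factors 0 higher and 1 lower of 13, Hnf4a with -1.09 (median -0.21). Nqo1 was lower in DFO-treated FAO cells and higher in iron-free liver.

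In kidney no member differed by 2-fold in either direction between the diets: 0 of 24 with a value were higher, beside 3.11% of all 8952 genes, and 0 were lower, beside 1.26%. Small differences leaned to one side. The signal was lower in iron-free than in iron-sufficient kidney for 22 of 24 members (91.7%), against 55% of all genes, and the median member differed by -0.30 and the median gene by -0.03. Scaled to the medians of their own detected probes, the kidney arrays gave 18 of 24 members below 0 and a median of -0.10, against 0.17 for all genes. Relative to all genes the members' median was -0.27 under the first scaling. A scaling that shifts a whole array moves members and all genes alike, so it cannot test this value. It was -0.30 with quantile normalization, -0.27 with normexp correction and -0.26 without noisy blocks.

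By family the kidney medians were -0.39 for 3 glucuronosyltransferases, -0.26 for 16 glutathione transferases and -0.32 for 5 sulfotransferases. The lowest were Gsta3 (-0.78 ± 0.25), with 5472 in iron-free and 9398 in iron-sufficient kidney, and Sult1c3 (-0.67 ± 0.37), with 250.4 in iron-free and 399.5 in iron-sufficient kidney. They were picked after their values were seen. A second Gsta3 probe gave -0.01, so the 2 Gsta3 probes disagree. The second Gstt3 probe, with 397.3 in iron-free and 891.9 in iron-sufficient kidney, was past 2-fold (-1.17) where the brighter probe gave -0.60.

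The 2 members above 0 in kidney were Gsta4 (0.09) and Gsta2 (0.47), and Gsta2 came to -0.04 without a noisy spot of the control array. All 10 kidney tubule markers had a value and none was called (median 0.02), with summed signals of 635721 in iron-free and 648448 in iron-sufficient kidney. Erythroid markers were higher for 2 of 7 and fibroblast markers for 2 of 7, and the fibroblast list summed to 9141 in iron-free and 4177 in iron-sufficient kidney. Leukocyte and macrophage markers were called for 0 of 4 and bile duct markers for 0 of 4. The part of all these cells in the enzymes' small differences was not tested. Of the surrounding genes, Ugp2, which makes UDP-glucose, was higher by 1.02 ± 0.18 as 1 of 6 for glucuronic acid supply (median -0.20). The Golgi PAPS carrier Slc35b2 was higher by 1.001 as 1 of 12 for sulfate supply (median -0.01), and Chac1 was lower by -1.13 ± 1.11 as 1 of 14 for glutathione supply (median -0.01). None was called among 12 other conjugating enzymes (median -0.13), 9 carriers (median -0.12) and 7 transcription factors (median -0.19). Of all genes 3.11% were higher and 1.26% lower in iron-free kidney.

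Between the tissues of iron-sufficient rats the enzymes differed far more than between the diets. Of 30 with a value, 18 were at least 2-fold higher in liver than in kidney (60%), 6 of them as bounds, beside 14.9% of all 9337 genes, and 4 were lower (13.3%), beside 26.6%. All 7 glucuronosyltransferases with a value were higher in liver (family median 3.05), 5 of 7 sulfotransferases were higher and 2 lower (median 4.32), and 6 of 16 glutathione transferases were higher and 2 lower (median 0.43). Of the 7 glucuronosyltransferase values 4 are bounds, and the median of 3.05 is itself the bound of Ugt2a3. The median gene differed by -0.21.

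Several enzymes bright in liver were below background in kidney. Ugt2b17 had 48496 in iron-sufficient liver and 47.5, below background, in iron-sufficient kidney, at least 462-fold higher in liver. Sult2a1 had 14339 in liver and 34.5, below background, in kidney, at least 137-fold higher, and Ugt2a3 with 870.7 in liver was at least 8.29-fold higher. Ugt2b1 and Sult2a6 were at least 63.9-fold and 182-fold higher; the Sult2a6 value rests on 2 noisy spots.

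Other liver enzymes were measured in both tissues. Sult1c3 had 36150 in liver and 399.5 in kidney, 90.5-fold higher in liver, and Sult1a1 had 48645 in liver and 2430 in kidney, 20.02-fold higher. Of the mu class, Gstm1 had 18939 in liver and 582.1 in kidney (32.5-fold higher), Gstm2 13375 in liver and 786.9 in kidney (17.0-fold higher) and Gstm7 3334 in liver and 638.3 in kidney (5.22-fold higher). Ugt1a6 had 28424 in liver and 11348 in kidney and was the glucuronosyltransferase with the smallest difference, 2.51-fold. By the brighter probe of each gene, these 3 mu class genes and Gstm4 (2.91-fold higher in liver) were called between the tissues. No alpha class gene was called by its brighter probe.

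In the other direction Sult1c2 was 10.97-fold, Gstp1 9.37-fold, Gstt3 8.49-fold and Sult1c2a 7.52-fold lower in liver than in kidney. The 5 alpha class genes with a value were all within 2-fold between the tissues by their brighter probe, Gsta2 with noisy liver spots only. The second Gsta3 probe differed from that: it was not above background in iron-sufficient liver (22.3) and read 510.2 in iron-sufficient kidney, at least 11.3-fold lower in liver. The Ugt2b37 probes also disagreed in size, 13.3-fold higher in liver by one and at least 137-fold by the other, so how specific each probe is among relatives was not settled by these data.

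Untreated FAO cells had less signal than liver for many of the enzymes, sulfotransferases above all. Of 34 members with a value, 5 were at least 2-fold higher in untreated FAO cells than in iron-sufficient liver (14.7%), beside 27.7% of all 10595 genes, and 19 were lower (55.9%), beside 27.8%. Of the sulfotransferases 7 of 8 were lower (family median -5.06), of the glucuronosyltransferases 6 of 8 (median -2.85) and of the glutathione transferases 6 of 18 (median -0.72). All 10 hepatocyte markers were lower in FAO cells as well, with a median of -4.57 and summed signals of 119727 in untreated FAO cells and 1552287 in iron-sufficient liver. The comparison sets a cell line against a tissue with several cell types.

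Sult1c3 was below background in FAO cells (6.54), against 36150 in liver, at least 1696-fold lower. Sult2a1 was below background in FAO cells (5.62), against 14339 in liver, at least 673-fold lower, and Ugt2a3 (5.51 in FAO cells, against 870.7 in liver) at least 40.9-fold lower. Of the 3, Sult2a1 is the relative of Sult2a6, which FAO cells did hold (627.0). Sult1a1 had 1334 in FAO cells and 48645 in liver, 36.5-fold lower. Gstm7 had 106.0 in FAO cells and 3334 in liver, 31.5-fold lower. Gstk1, a kappa class enzyme of mitochondria and peroxisomes, had 690.6 in FAO cells and 12354 in liver, 17.9-fold lower.

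Gstm2 had 1866 in FAO cells and 13375 in liver, 7.17-fold lower, and Ugt2b17 had 6022 in FAO cells and 48496 in liver, 8.05-fold lower. Ugt1a6 had nearly the same signal in both, 23627 in FAO cells and 28424 in liver, a difference of -0.27 ± 0.27. Higher in FAO cells were Gstp1, 44.7-fold, Sult5a1, at least 11.1-fold, Gstt3, 7.58-fold, Gstm5, at least 5.70-fold, and Ugt2b7, at least 4.10-fold; Sult5a1 and Gstm5 each have 1 control liver spot in a noisy block, and without it Sult5a1 had no value and Gstm5 was 4.36-fold higher. These level comparisons share the control arrays with the diet and chelation comparisons.

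**Figure D4:**
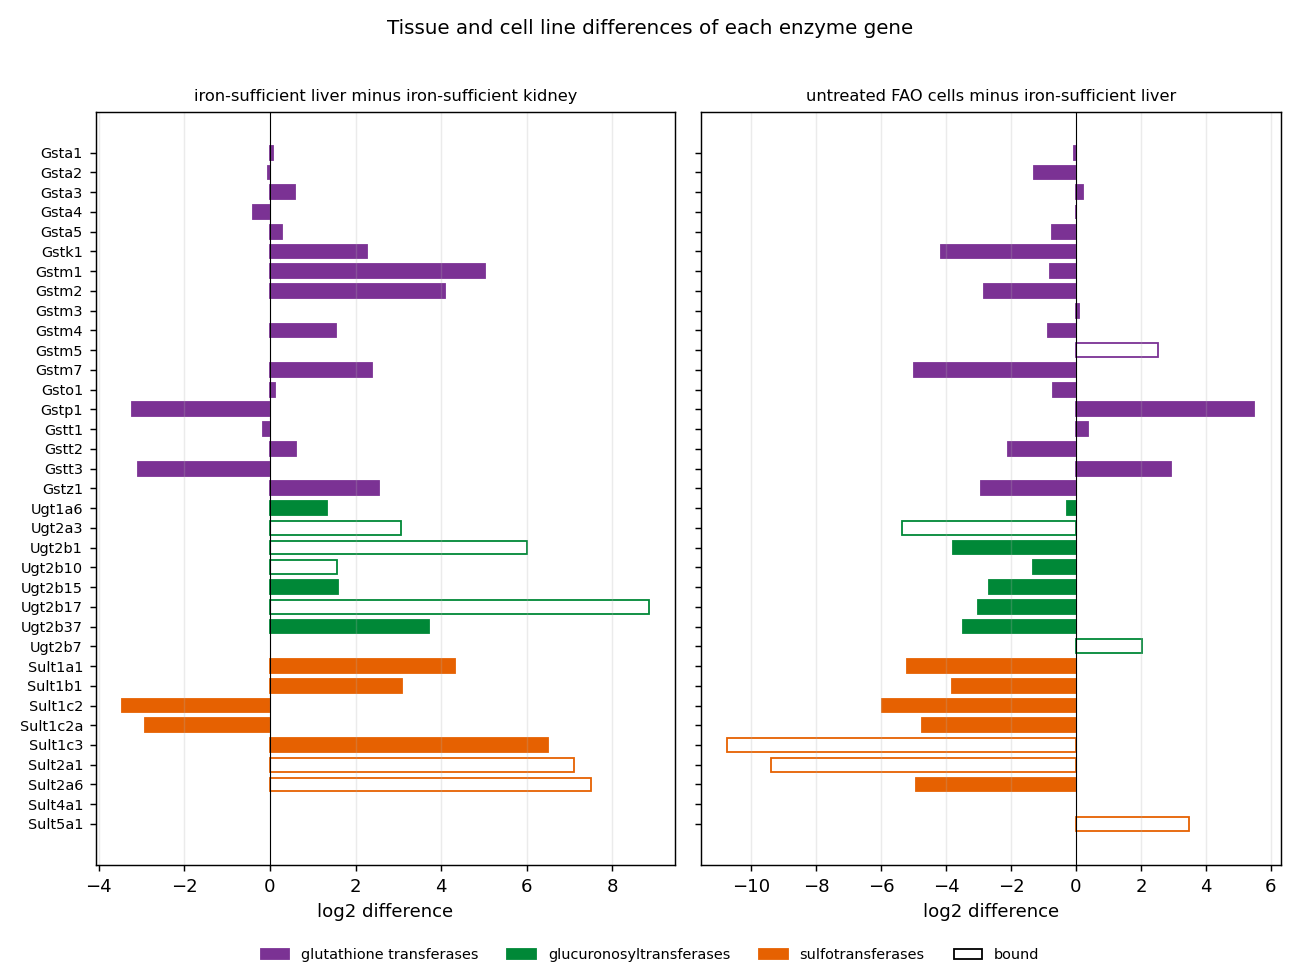
Log2 difference of each enzyme gene between iron-sufficient liver and iron-sufficient kidney (left) and between untreated FAO cells and iron-sufficient liver (right); open bars are bounds and a missing bar means no value. In the left panel 18 genes are at least 2-fold higher and 4 lower in liver, and in the right panel 5 are higher and 19 lower in FAO cells.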

How the data were processed

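The labels describe 6 rat RNA pools, each hybridised to 1 one-colour array. Per the file headers, the authors extracted spots with Agilent Feature Extraction 10.7.3.1 (design 028279, build rn4). The deposited intensity used here is the scanner's background-subtracted processed signal. The authors' deposited series table also holds a log2 value per probe and array, with column medians of -4.195 (DFO-treated) and -4.155 (untreated) in FAO cells, -3.309 (iron-free) and -3.44 (iron-sufficient) in liver and -3.284 (iron-free) and -3.328 (iron-sufficient) in kidney; it equals, to within 0.000405, the log2 intensity less the 75th percentile of that array.

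Log2 signals were averaged over a probe's spots without outlier flags, and each array's 75th percentile was set equal, taken over the 9091 probes (29.9%) that every array detected, since most probes were not. The spot standard error was pooled over probes in 20 bins of signal. A block of 16 by 16 spots was noisy when its median spot deviation was over 0.25 (log2) or 3 times the array's median block. Bounds use the dim array's lowest detected signal or the probe's own, whichever is higher. Gene IDs named 19958 genes, of which 19142 were in RefSeq's table. The members and lists were chosen with earlier results of these data known. The members named with all 6 levels are those called in at least 1 of the 3 pairs; of the rest, up to 3 per family with the widest liver minus kidney and FAO minus liver differences are named. Python 3.11.15, numpy 2.4.6 and pandas 2.3.3 were used, with steps tested on simulated data. Normexp correction (limma 3.58.1, R 4.3.3) was run on median signals, in place of the mean signals planned, as 1 of 11 alternatives. The number of arrays and signal over background limit the precision.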

Additional observations from a re-analysis of the deposited data

How the results depend on the processing

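Over 11 alternatives for scaling, background, spots, filter, probe choice and size rule, 124 of 137 summary counts and medians stayed within the limit set for them and 13 did not; no call of a single member changed sign. Scaled to own detected medians, liver had 4 members higher and 1 lower and a median of 0.385, while the whole array went to 2120 genes higher and 78 lower, against 663 and 306. Without noisy blocks 1 member was lower in liver. With no filter on dim probes, 5 were lower in liver, 2 in kidney, 11 between liver and kidney and 29 between FAO cells and liver. With probes above background on both arrays, 2 were higher in FAO cells than in liver. At 1.5-fold, 5 were lower in liver and 5 in kidney. At 3-fold, 6 were lower in DFO-treated cells and 1 in liver. The share of all genes was not computed for these filters and size rules, so these counts have no background beside them. The shifts under another filter or size rule follow from its construction. Scaling to own detected medians shifts each array by 1 constant, so that all differences of a pair move together is also fixed by construction. Why that constant was large in liver was not tested, nor was the cause of the shifts without noisy blocks. In FAO cells, normexp on median signals, added after the data were seen, left Gstm5 (0.63), Gstz1 (-0.62) and Ugt2b10 (-0.79) within 2-fold. Gsta2, Gsta5, Gstm3, Sult1b1, Sult1c2, Ugt2b15 and Ugt2b37 in FAO cells and Gstm3, Gstp1 and Ugt2b1 in liver passed 2-fold under all 9 alternatives that keep the 2-fold rule. Some of these passes were fixed in advance. The filters on dim probes leave a gene measured on both arrays unchanged, and the mean over probes leaves a gene with 1 probe unchanged. For Sult1c2 every alternative uses the same dim untreated spot. No paired analysis was possible because each group is 1 array. Probes near background allow bounds only, and among the members they were most common in kidney.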

Other observations

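Genes around the enzymes also differed between FAO cells and liver, and the hepatocyte markers differed with them. Of 15 other conjugating enzymes with a value, 1 was at least 2-fold higher and 10 were lower in untreated FAO cells than in iron-sufficient liver (median -2.56). Of 16 export pumps and uptake carriers 4 were higher and 10 lower (median -3.00). Sulfate supply had 3 higher and 4 lower of 11 (median -0.48), glucuronic acid supply 2 higher and 1 lower of 7 (median 0.17), glutathione supply 5 higher and 7 lower of 17 (median -0.05) and transcription factors 1 higher and 6 lower of 13 (median -0.50). Over all genes 27.7% were higher and 27.8% lower.

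Between iron-sufficient liver and kidney, 14.9% of all genes were higher and 26.6% lower in liver (median -0.21). Of 15 glutathione supply genes with a value 4 were higher and 8 lower (median -1.50). Export pumps and carriers had 8 higher and 6 lower of 15 (median 1.46), other conjugating enzymes 7 higher and 5 lower of 16 (median 0.49), sulfate supply 2 higher and 4 lower of 12 (median -0.62), glucuronic acid supply 3 higher and 0 lower of 6 (median 0.52) and transcription factors 5 higher and 0 lower of 11 (median 0.91). These values carry no test.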
